A study of Mus musculus with 2 samples.

Results

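Prrx1, Prrx2, Twist1 and Twist2, the 4 genes described here, encode transcription factors of embryonic mesenchyme. They were chosen by name, as 4 of the 15944 genes listed in both count tables (17775 genes at E13.5 and 16236 at E11.5), and all 4 were found at both stages. The cells came from the mandibular prominence, the embryonic tissue of the lower jaw and tongue, of wild-type CD1 mice and were profiled by 10x droplet RNA sequencing at embryonic day 13.5 (E13.5) and at embryonic day 11.5 (E11.5). For each stage 12.5 mg of minced tissue was digested in the cold for 10 minutes with a bacterial protease, at 5 mg/ml for E13.5 and 3 mg/ml for E11.5, and 9600 cells were loaded with 6000 as the target. The tissue was said to include the developing tongue and skeletal elements at E13.5 and the tongue bud at E11.5. The labels state neither how many embryos were pooled nor their sex.

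The E13.5 library held 6318 cells in 22 deposited clusters with a median of 9280 UMIs (unique molecular identifiers, which count transcripts), and the E11.5 library held 7099 cells in 18 clusters with a median of 6231 UMIs. There was 1 library per stage, so stage, library and protease concentration cannot be told apart, no test between stages was possible, and every interval below is a 95% interval for counting error only. Xist was at 499 CPM in the E13.5 mesenchyme and 0.0536 CPM in the E11.5 mesenchyme, where CPM is UMIs scaled to a sum of 1e+06, so the libraries also differed in a transcript tied to embryo sex. The libraries shared 71 cell barcodes. The mesenchyme, by the authors' lineage names checked against marker genes, held 3905 cells in 11 clusters at E13.5 and 5899 cells in 11 clusters at E11.5. Its 9 marker genes, among them Pdgfra and Col3a1, summed to 2791 CPM there at E13.5 and 1709 CPM at E11.5, with none at 0.

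PRRX1 and PRRX2 are paired-related homeodomain proteins, and mouse embryos that lack both have severe defects of the mandible and limbs. TWIST1 and TWIST2 are basic helix-loop-helix proteins that bind DNA as dimers, often with the E proteins TCF3, TCF4 or TCF12. TWIST1 acts in cranial neural crest mesenchyme and the skull sutures, and TWIST2, also called Dermo1, in the dermis and in restraining osteoblast maturation.

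The genes form 2 paralog pairs, and the stretches below show how far the transcripts of each pair are alike. In GRCm38 with the GENCODE M21 annotation, Prrx1 (ENSMUSG00000026586) lies at chr1:163245119-163313710 on the minus strand and Prrx2 (ENSMUSG00000039476) at chr2:30834972-30881251 on the plus strand. The most alike 180 coding bases of the Prrx pair, which fall within the region that encodes the homeodomain and its flank, matched at 146 positions (81.1%), and 29 of the 34 differences were at the last base of a codon. They are given 5′ to 3′ on the coding strand, with the bases that differ from the paralog in capitals. Each joins coding bases of 2 exons, at chr1:163257886-163261962 (minus strand) for Prrx1 and chr2:30878469-30879548 (plus strand) for Prrx2.
Prrx1: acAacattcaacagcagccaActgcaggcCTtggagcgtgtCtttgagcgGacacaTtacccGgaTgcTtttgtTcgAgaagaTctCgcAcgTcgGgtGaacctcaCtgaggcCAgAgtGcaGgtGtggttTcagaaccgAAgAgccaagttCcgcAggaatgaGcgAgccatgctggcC
Prrx2: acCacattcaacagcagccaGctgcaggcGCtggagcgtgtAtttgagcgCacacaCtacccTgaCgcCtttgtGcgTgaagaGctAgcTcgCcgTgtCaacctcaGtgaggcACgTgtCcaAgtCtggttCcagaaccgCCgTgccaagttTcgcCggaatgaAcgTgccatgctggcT

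Twist1 (ENSMUSG00000035799) lies at chr12:33957671-33959829 and Twist2 (ENSMUSG00000007805) at chr1:91801461-91848028, both on the plus strand. Their most alike 180 coding bases, which hold the part that encodes the basic helix-loop-helix region, matched at 159 positions (88.3%), with 16 of 21 differences at the last base of a codon. The stretches lie in 1 exon each, at chr12:33958284-33958463 and chr1:91801795-91801974, and capitals again mark the bases that differ.
Twist1: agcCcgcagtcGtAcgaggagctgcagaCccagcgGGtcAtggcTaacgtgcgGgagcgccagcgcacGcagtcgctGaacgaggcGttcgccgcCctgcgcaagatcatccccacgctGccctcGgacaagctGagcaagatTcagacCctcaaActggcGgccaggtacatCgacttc
Twist2: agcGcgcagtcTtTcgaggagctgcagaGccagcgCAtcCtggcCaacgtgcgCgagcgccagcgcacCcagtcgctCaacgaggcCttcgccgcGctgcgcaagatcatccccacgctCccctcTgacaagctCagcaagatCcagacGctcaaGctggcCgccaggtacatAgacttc
The longest identical run between whole transcripts was 19 bases for the Prrx pair and 23 bases for the Twist pair, and in the last 500 bases of each transcript it was 8 and 9 bases. How reads that fit both paralogs were counted is not stated in the labels. UMIs were not scaled to transcript length, so levels are compared here between cells and stages and not between genes.

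In the mesenchyme the Prrx genes were at a lower level at E13.5 than at E11.5 and the Twist genes at a higher level. Prrx1 stood at 304 CPM (298 to 310) at E13.5 and 445 CPM (438 to 452) at E11.5, which is 1.46-fold lower at E13.5 (1.43 to 1.50). Prrx2 stood at 77.7 CPM (74.8 to 80.7) at E13.5 and 165 CPM (161 to 170) at E11.5, 2.13-fold lower (2.03 to 2.23). A noncoding gene, Gm26523, lies within Prrx1 on the same strand, and an antisense gene, Gm29100, covers the start of Twist2, so reads there may have been split between genes. With the UMIs of Gm26523 counted with those of Prrx1, a choice made after seeing the data, Prrx1 stood at 328 CPM at E13.5 and 706 CPM at E11.5, 2.15-fold lower (2.10 to 2.20). Both Prrx genes were lower at E13.5 under either counting. By counts as deposited Prrx2 was lower by more, while with Gm26523 counted with Prrx1 the intervals of the Prrx genes overlapped.

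Twist1 stood at 66.2 CPM (63.5 to 68.9) at E13.5 and 43.8 CPM (41.7 to 46.0) at E11.5, 1.51-fold higher at E13.5 (1.42 to 1.61). Twist2 stood at 197 CPM (192 to 202) at E13.5 and 102 CPM (98.7 to 105) at E11.5, 1.93-fold higher (1.86 to 2.01). A change of 1.5-fold or more, with an interval that excluded 1, was called higher or lower, which is a rule of size and not a test. By that rule Twist1 and Twist2 were called higher, Prrx2 lower and Prrx1 neither (lower if Gm26523 is counted with it), beside 27.0% of 14139 measured genes called higher and 12.2% called lower. A ratio at or above that of Twist1 was found for 28.5% of measured genes and one at or above that of Twist2 for 19.5%, while 4.70% were at or below the ratio of Prrx2 and 14.2% at or below that of Prrx1.

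The calls of Twist1 and Prrx1 sat near the 1.5-fold limit and depended on the scaling. All measured genes had a median log2 ratio of 0.14, and size factors that remove this shift gave 3236 genes higher and 2422 lower, against 3821 higher and 1723 lower by CPM. With size factors Twist1 was 1.37-fold higher and no longer called, whereas the ratio of Prrx1, E13.5 over E11.5, was 0.619 and called lower. Prrx2, with a ratio of 0.426, and Twist2, 1.75-fold higher, kept their calls.

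Detection of each gene in single mesenchyme cells moved the same way when every cell was drawn down to 2000 UMIs. This left 3826 of the 3905 cells at E13.5 and all 5899 at E11.5. Prrx1 was detected in 38.7% of cells (37.2 to 40.3) at E13.5 and 55.0% (53.7 to 56.3) at E11.5, and Prrx2 in 14% (12.9 to 15.1) at E13.5 and 25.3% (24.2 to 26.5) at E11.5. Twist1 was detected in 11.8% (10.8 to 12.9) at E13.5 and 7.66% (7.0 to 8.37) at E11.5, and Twist2 in 26.2% (24.8 to 27.6) at E13.5 and 17.4% (16.5 to 18.4) at E11.5. For none of the 4 genes did the counting intervals of the stages overlap, and how often this held for other genes was not computed. At full depth Prrx1 was detected in 69.4% of cells at E13.5 and 84.6% at E11.5, and Prrx2 in 42.2% at E13.5 and 56.4% at E11.5. Twist1 was then detected in 37.1% at E13.5 and 22.9% at E11.5, and Twist2 in 57.4% at E13.5 and 39.0% at E11.5.

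Red blood cells, which should lack all 4 genes, served as the measure of free RNA in the droplets. After the same drawing, Prrx1 was detected in 1.46% of erythroid cells at E13.5 and 11.2% at E11.5, and Prrx2 in 0.485% at E13.5 and 3.73% at E11.5. Twist1 and Twist2 were each detected in 0 of 206 erythroid cells at E13.5, which allows a share of up to 1.46%, and in 0.439% and 3.51% at E11.5. These cells were deep, with a median of 18517 UMIs at E13.5 and 13137 at E11.5. Globin made up 88.2% of their UMIs at E13.5 and 65.7% at E11.5. Globin UMIs were drawn like all others, which lowers the erythroid shares after drawing. Scaled to 1e+06 UMIs other than globin, the erythroid level was 9.59% (Twist2) to 24.3% (Prrx2) of the mesenchyme level at E13.5 and 24.7% (Twist1) to 44.8% (Twist2) at E11.5. The part of free RNA in the stage differences was not tested. Erythroid markers summed to 2158 CPM in the mesenchyme at E13.5 and 12379 CPM at E11.5.

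In the other named classes all 4 genes were lower than in the mesenchyme. The next highest named class of at least 50 cells was glia for Prrx1 at E13.5, at 22.1 CPM, which put the mesenchyme 13.7-fold above it (9.55 to 20.5), and epithelium at E11.5, at 68.7 CPM, with the mesenchyme 6.47-fold above (5.64 to 7.46). For Prrx2 it was skeletal muscle at both stages, 7.03-fold below the mesenchyme at E13.5 and 3.47-fold below at E11.5. Twist1 in the mesenchyme was 7.60-fold above endothelium at E13.5 and 5.00-fold above skeletal muscle at E11.5, and Twist2 was 12.3-fold above endothelium at E13.5 and 5.09-fold above it at E11.5. All 8 of these next highest levels were at or below the erythroid level on the scale without globin. By other measures this did not hold. Of the 8 classes, 6 had more UMIs of the gene per cell than erythroid cells. After drawing 7 of the 8 had a higher detected share, though in none were the intervals apart. Globin took up most of each erythroid draw, so the shares after drawing cannot decide whether free RNA was exceeded. Prrx2 in muscle at E13.5 had 0.215 UMIs per cell, against 0.0386 in erythroid cells of like depth (medians 18848 and 18517 UMIs), and was detected after drawing in 2.27% of muscle cells (1.33 to 3.61), against 0.485% of erythroid cells (0.0123 to 2.67). Whether these low levels exceed free RNA thus depended on the scale. The unnamed E13.5 cluster 8, whose cells had 935 UMIs at the median and whose leading genes were mainly those of red blood cells, held 163 CPM of Prrx1, 41.2 CPM of Prrx2, 25.9 CPM of Twist1 and 80.8 CPM of Twist2.

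The few Prrx UMIs of skeletal muscle came from Prrx2 more often than those of the mesenchyme did. Prrx2 gave 36.7% (32.2 to 41.4) of the 441 Prrx UMIs of muscle at E13.5 and 46.0% (38.8 to 53.4) of 189 at E11.5. In erythroid cells the share was 25.8% (11.9 to 44.6) at E13.5 and 26.6% (22.9 to 30.6) at E11.5, and in the mesenchyme 20.4% (19.7 to 21.1) at E13.5 and 27.1% (26.5 to 27.7) at E11.5. In epithelium it was 28.2% (21.3 to 36.0) at E13.5 and 30.1% (24.9 to 35.8) at E11.5. The muscle share lay above the interval of the mesenchyme at both stages and above that of erythroid cells at E11.5, while at E13.5 the intervals of erythroid cells, from 31 UMIs, and of epithelium overlapped it. At E11.5 it lay above the interval of epithelium too. At E13.5 most of the Prrx2 UMIs of muscle, 141 of 162, came from cluster 1, which led with the muscle progenitor genes Msc and Lbx1.

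**Figure D1:**
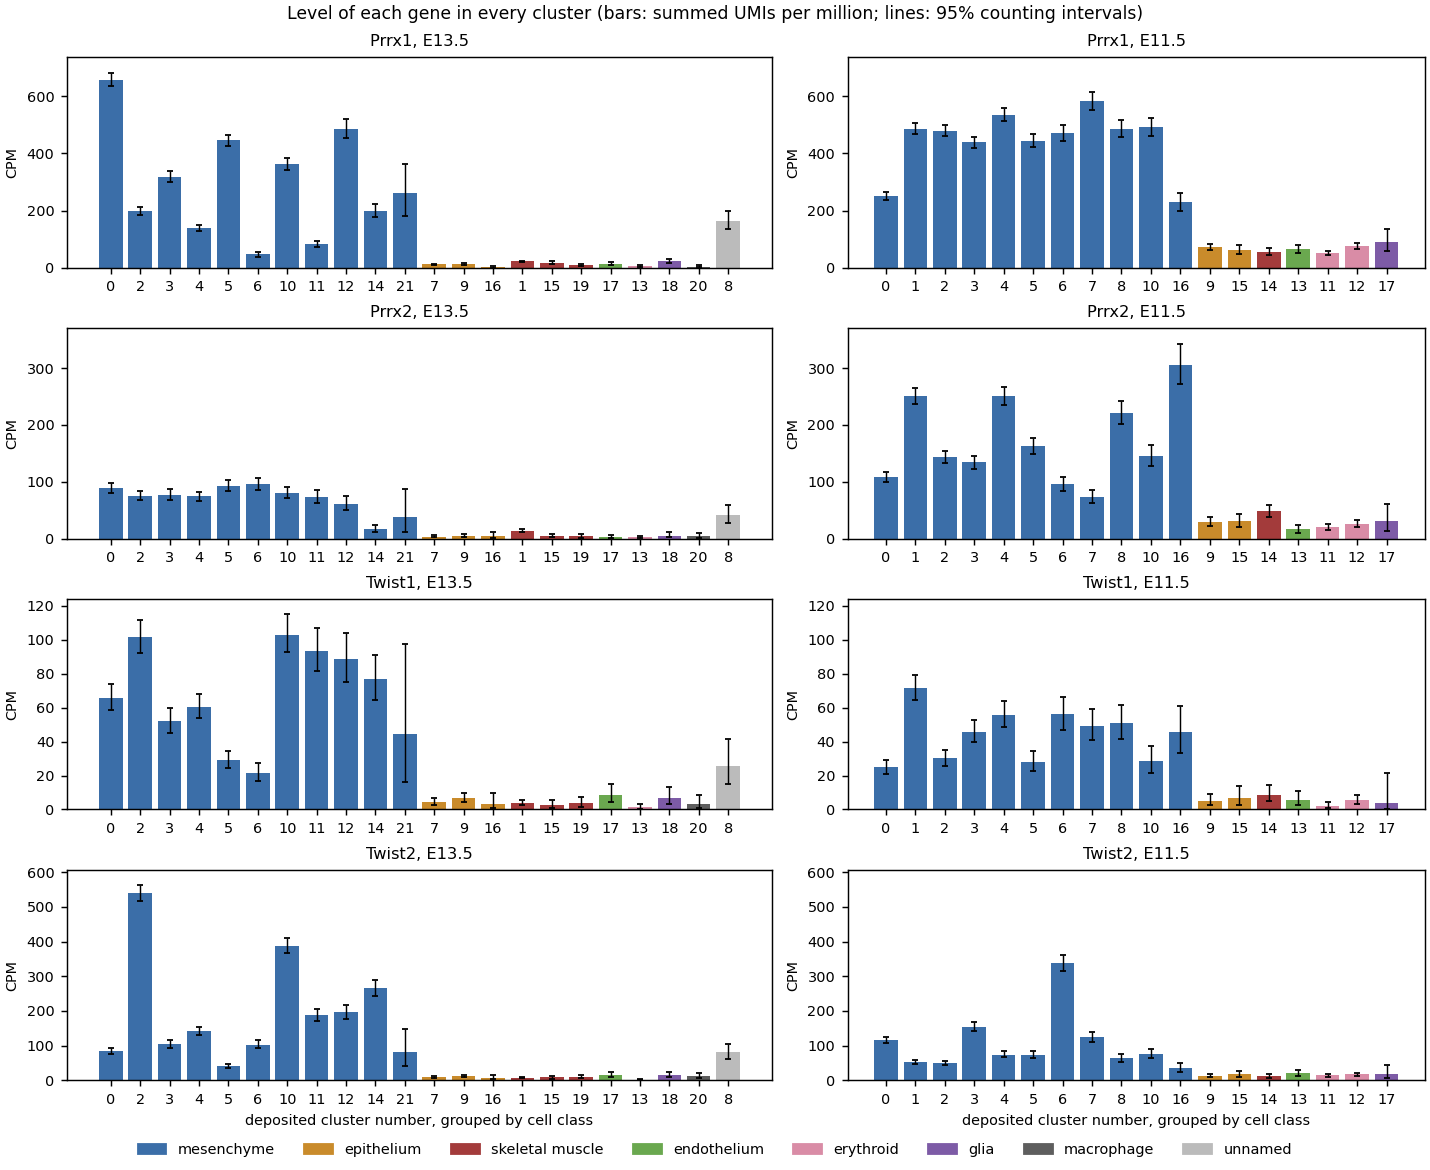
CPM of each gene, from summed UMIs, in every deposited cluster at E13.5 (left) and E11.5 (right), coloured by cell class, with 95% counting intervals as lines. Most mesenchyme clusters stand above the other classes, with exceptions such as E13.5 cluster 6 for Prrx1 (46.2 CPM), which is below the unnamed cluster 8 (163 CPM), and Prrx1 and Twist2 spread most widely over them at E13.5, from 46.2 to 659 CPM and from 40.3 to 540 CPM.

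Within the mesenchyme Prrx1 was spread over a far wider range at E13.5 than at E11.5. At E13.5 its 11 clusters ran from 46.2 CPM (39.1 to 54.3) in cluster 6 to 659 CPM (636 to 683) in cluster 0, a 14.3-fold range (12.1 to 16.9). At E11.5 they ran from 229 CPM in cluster 16 to 583 CPM in cluster 7, a 2.55-fold range (2.21 to 2.95). The erythroid level of Prrx1 on the scale without globin was 54.4 at E13.5 and 187 at E11.5. The part of free RNA in the unequal ranges was not tested. By level the highest cluster at E13.5 was above every E11.5 cluster, and 5 of the 11 clusters at E13.5 were below every E11.5 cluster. Of those 5, clusters 14 (179 to 222) and 2 (183 to 211) had intervals that overlapped that of E11.5 cluster 16 (200 to 261). Such counts of clusters, here and below, were not made for other genes.

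The E13.5 order for Prrx1 was cluster 0 (659 CPM), then 12 (487 CPM), 5 (446 CPM), 10 (363 CPM), 3 (319 CPM), 21 (261 CPM), 14 (200 CPM), 2 (197 CPM), 4 (139 CPM), 11 (82.7 CPM) and 6 (46.2 CPM). Neighbours in this order were apart by more than counting error except clusters 3 and 21, 21 and 14, and 14 and 2. Cluster 0 led with Pthlh, which encodes the parathyroid hormone-related peptide, and the extracellular matrix gene Vcan, and it gave 28.3% of all Prrx1 UMIs of the mesenchyme from 13.0% of its total UMIs. Cluster 12 led with Phactr1 and Prdm6, and cluster 5, which the authors named osteogenic progenitors, with the bone genes Ibsp and Sp7. At the low end, cluster 6 led with Aldh1a3, a retinoic acid synthesis enzyme, and Meox1, and cluster 11 with Tfap2b and the forkhead gene Foxq1. The 46.2 CPM of cluster 6 was below the erythroid level of 54.4 on the scale without globin. Its cells were nevertheless detected with Prrx1 more often, in 20.9% at full depth and 5.70% (3.61 to 8.50) after drawing, against 4.35% and 1.46% (0.301 to 4.20) of erythroid cells, which were deeper (medians 7898 and 18517 UMIs). The intervals after drawing overlapped, and globin took up most of each erythroid draw, which lowers the erythroid share.

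At E11.5 most clusters had like levels of Prrx1. Cluster 7, which led with Tbx18 and Osr2, and cluster 4, which led with Hand1, stood highest at 583 and 536 CPM. Clusters 10, 1, 8, 2, 6, 5 and 3 followed between 492 and 439 CPM with no neighbours apart by more than counting error. Further apart in the order, the interval of cluster 3 (420 to 459) lay below those of clusters 10 (460 to 525), 1 (468 to 506) and 2 (461 to 498). Cluster 0, which led with Cited1, and cluster 16, which led with Inhba, were lower, at 251 and 229 CPM, and were not apart from each other.

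Over clusters of at least 200 cells Prrx2 was nearly even at E13.5, with a 1.56-fold range (1.25 to 1.96), and uneven at E11.5, with a 3.39-fold range (2.89 to 3.99). Over all clusters the range was 5.79-fold (3.95 to 8.80) at E13.5 and 4.14-fold (3.43 to 5.02) at E11.5. At E13.5 it ran from 16.5 CPM (11.1 to 23.7) in cluster 14 to 95.6 CPM (85.2 to 107) in cluster 6. No neighbours in the E13.5 order were apart by more than counting error. However, cluster 21, with 5 UMIs (12.1 to 87.0 CPM), stood between clusters 12 and 14. The interval of cluster 14 lay below that of cluster 12 (50.3 to 74.1). Cluster 6, the lowest for Prrx1, was the highest for Prrx2. Cluster 14, which led with the dermal matrix gene Dpt, was at 16.5 CPM, below the erythroid level of 18.9 on the scale without globin. After drawing Prrx2 was detected in 2.21% of its cells (0.605 to 5.56), against 0.485% of erythroid cells (0.0123 to 2.67), a share that globin lowers.

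At E11.5 Prrx2 was highest in cluster 16 at 306 CPM (272 to 343), followed by clusters 1 and 4 at 250 CPM each and cluster 8 at 220 CPM. Clusters 5, 10, 2 and 3 lay between 163 and 134 CPM, cluster 0 at 108 CPM, cluster 6 at 96.1 CPM and cluster 7 at 73.9 CPM (63.4 to 85.6). The erythroid level of Prrx2 at E11.5 was 67.7 on the scale without globin. Pax3, a neural crest and muscle progenitor gene, was among the leading genes of clusters 1 and 8. By level, in 10 of the 11 clusters at E11.5 Prrx2 was above its highest E13.5 cluster, the exception being cluster 7, the highest for Prrx1. The intervals of E11.5 clusters 6 (84.1 to 109) and 0 (99.3 to 117) overlapped that of the highest E13.5 cluster (85.2 to 107).

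Twist1 had its highest levels at E13.5 in clusters 10 and 2, at 103 and 102 CPM (92.5 to 112 in cluster 2), and its lowest in clusters 5 and 6, at 29.0 CPM (24.2 to 34.4) and 21.4 CPM (16.6 to 27.1). Clusters 11, 12 and 14 followed the top pair at 93.7, 88.9 and 76.8 CPM. The levels of these 5 clusters were above that of every E11.5 cluster. The intervals of clusters 12 (75.4 to 104) and 14 (64.4 to 91.0) overlapped that of the highest E11.5 cluster (64.5 to 79.2). Clusters 0, 4, 3 and 21 lay between 66.0 and 44.7 CPM. Of all neighbours in the order, clusters 5 and 6 alone were apart. However, cluster 21, with 6 UMIs (16.4 to 97.4 CPM), stood between clusters 3 and 5. The interval of cluster 5 lay below that of cluster 3 (45.1 to 60.0). The osteogenic cluster 5 was thus low for Twist1 and high for Prrx1.

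At E11.5 Twist1 was highest in cluster 1 at 71.5 CPM (64.5 to 79.2), which led with Cbln4, Sp9 and Pax3. Clusters 6, 4, 8, 7, 3 and 16 lay between 56.0 and 45.7 CPM with no neighbours apart. Clusters 2, 10, 5 and 0 lay between 30.1 and 24.8 CPM. Of these, clusters 10, 5 and 0 had cartilage genes among their 10 leading genes over the rest of the library. They were Sox9 and Col2a1 in clusters 10 and 5, and Col9a1 in clusters 10 and 0.

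Twist2 was concentrated in a few clusters at both stages. At E13.5 cluster 2 stood at 540 CPM (518 to 562), cluster 10 at 387 CPM (366 to 410) and cluster 14 at 265 CPM (242 to 290), each apart from the next. Clusters 2 and 10 gave 33.2% and 18.6% of the Twist2 UMIs of the mesenchyme from 12.1% and 9.47% of its total UMIs. Irx1, Pax1 and Tbx18 were among the leading genes of both over the rest of the library. No cell of cluster 10 was called G1 by the authors. Clusters 12, 11, 4, 3, 6, 0, 21 and 5 followed, from 196 CPM in cluster 12 to 40.3 CPM (34.7 to 46.7) in the osteogenic cluster 5, a 13.4-fold range over all clusters (11.5 to 15.7).

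Clusters 2 and 10 also carried the highest neuronal marker sums of the E13.5 mesenchyme, 687 and 319 CPM, against 13.2 to 171 CPM in the other clusters. Stmn2 gave most of it, at 633 CPM in cluster 2 and 298 CPM in cluster 10. Tubb3 was at 53.4 and 21.5 CPM, and Elavl3 was at 0 in both. The part of neuronal RNA in the Twist2 levels was not tested. Twist2 was itself among the 10 leading genes of cluster 2 over the rest of the library, though not over the rest of the mesenchyme. Its height there thus partly describes how the cells were grouped.

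At E11.5 Twist2 was highest in cluster 6 at 338 CPM (315 to 362), which led with Pax1, Rspo3 and Igf1 and also had Twist2 among its 10 leading genes. That cluster gave 21.3% of Twist2 UMIs from 6.41% of all mesenchyme UMIs. Cluster 3, which led with Nr2f1 and Nr2f2, followed at 155 CPM and cluster 7 at 125 CPM, with cluster 0 not apart from it. The other clusters lay between 75.3 CPM and 35.6 CPM (24.8 to 49.5), the lowest being cluster 16, which was below the erythroid level of 46.2 on the scale without globin. After drawing Twist2 was detected in 6.25% of its cells (2.74 to 11.9), against 3.51% of erythroid cells (2.02 to 5.64), a share that globin lowers. Pax1 was thus a leading gene of the highest Twist2 cluster at each stage.

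**Figure D2:**
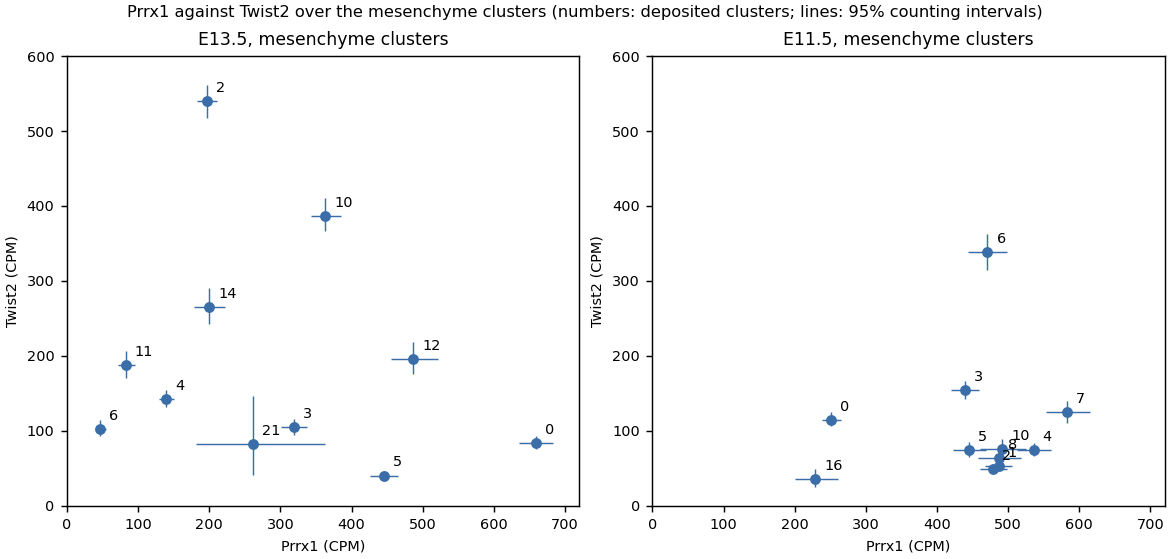
CPM of Prrx1 (horizontal axis) against CPM of Twist2 (vertical axis) in the 11 mesenchyme clusters at E13.5 (left) and E11.5 (right), labelled by deposited cluster number, with 95% counting intervals as lines. At E13.5 cluster 0 is highest for Prrx1 (659 CPM) and low for Twist2 (83.7 CPM), while cluster 2 is highest for Twist2 (540 CPM) at 197 CPM of Prrx1; at E11.5 most clusters lie between 439 and 583 CPM of Prrx1.

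The promoters of the 2 Twist genes are shown because these genes both had higher levels at E13.5. They are the 250 bases before the start in the RefSeq promoter table for GRCm38.p6, at chr12:33957421-33957670 for Twist1 and chr1:91801211-91801460 for Twist2, both on the plus strand, with CCAAT and TATAAA in capitals.
Twist1 promoter: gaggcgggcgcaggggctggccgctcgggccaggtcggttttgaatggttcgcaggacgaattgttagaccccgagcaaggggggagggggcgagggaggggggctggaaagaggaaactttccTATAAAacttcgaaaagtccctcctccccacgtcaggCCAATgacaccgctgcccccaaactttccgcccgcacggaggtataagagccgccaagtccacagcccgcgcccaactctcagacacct
Twist2 promoter: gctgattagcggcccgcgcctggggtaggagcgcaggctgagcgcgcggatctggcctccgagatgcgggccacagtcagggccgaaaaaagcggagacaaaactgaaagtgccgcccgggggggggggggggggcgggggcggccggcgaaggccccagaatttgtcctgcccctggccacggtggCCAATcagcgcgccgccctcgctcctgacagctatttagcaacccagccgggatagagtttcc
CCAAT began at position -89 in the Twist1 promoter and at -63 in the Twist2 promoter, counted from the base after the window, and TATAAA at -126 in Twist1 alone. Searched on both strands, CCAAT occurred in 33.8% of 32851 promoters of the same length and TATAAA in 12.4%. TAATTA, a core of homeodomain sites, occurred in 4.84% of them and once among the 4 genes, in the Prrx1 promoter at -173. CANNTG, the E-box letters, occurred in 66.2% of promoters and in none of these 4 windows. The matches in the printed windows did not overlap.

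The balance within each pair differed between stages by counts as deposited. Prrx2 gave 20.4% (19.7 to 21.1) of the Prrx UMIs of the mesenchyme at E13.5 and 27.1% (26.5 to 27.7) at E11.5, a difference of -6.74 percentage points (-7.65 to -5.83). With Gm26523 counted with Prrx1 this difference was gone: the share was 19.1% (18.5 to 19.8) at E13.5 and 19.0% (18.6 to 19.4) at E11.5, a difference of 0.155 points (-0.636 to 0.947). Twist2 gave 74.9% (73.9 to 75.7) of the Twist UMIs at E13.5 and 69.9% (68.7 to 71.2) at E11.5, a difference of 4.91 points (3.38 to 6.45). In cells called G1 alone the Twist difference was -1.78 points (-4.45 to 0.896), so its direction did not hold there.

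Clusters differed more in these shares than stages did. At E13.5 the Prrx2 share ran from 7.63% (5.17 to 10.8) in cluster 14 to 67.4% (62.9 to 71.7) in cluster 6, and at E11.5 from 11.2% (9.72 to 12.9) in cluster 7 to 57.2% (52.9 to 61.5) in cluster 16. The Twist2 share ran at E13.5 from 55.9% (52.0 to 59.7) in cluster 0 to 84.1% (82.7 to 85.5) in cluster 2, and at E11.5 from 42.3% (38.4 to 46.2) in cluster 1 to 85.8% (83.4 to 88.0) in cluster 6.

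Levels also differed with the cell cycle phase that the authors called for each cell. G1, S and G2M cells made up 57.0%, 22.6% and 20.4% of the mesenchyme at E13.5 and 31.7%, 30.4% and 37.9% at E11.5. Prrx1 in S and G2M cells together was at 264 CPM at E13.5, against 345 CPM in G1 cells, a ratio of 0.766 (0.736 to 0.796). At E11.5 the same ratio was 1.06 (1.02 to 1.10), from 451 CPM in S and G2M cells and 426 CPM in G1 cells. The E13.5 direction turned when clusters were taken one by one: the mean of the ratios within 9 clusters was 1.21, and 7 of the 9 were above 1. Such means weighed clusters the same and left out clusters with fewer than 20 G1 or fewer than 20 S and G2M cells. Left out were clusters 4 and 10 at E13.5 and clusters 3 and 16 at E11.5. The 442 and 292 cells of E13.5 clusters 4 and 10, none of them called G1, thus entered the pooled contrast only.

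Twist2 had the opposite contrast. At E13.5 it was at 226 CPM in S and G2M cells, against 167 CPM in G1 cells, a ratio of 1.36 (1.29 to 1.43), while at E11.5 it was at 95.2 CPM in S and G2M cells and 123 CPM in G1 cells, a ratio of 0.776 (0.723 to 0.832). Within clusters the mean ratio was 1.33 at E13.5, above 1 in 8 of 9 clusters, and 0.900 at E11.5, above 1 in 3 of 9. Twist1 was higher in S and G2M cells at both stages, with ratios of 1.29 (1.19 to 1.41) at E13.5 and 1.18 (1.05 to 1.33) at E11.5, and within clusters it was above 1 in 9 of 9 at E13.5 and in 6 of 9 at E11.5. Prrx2 differed little, with ratios of 1.14 (1.06 to 1.23) at E13.5 and 1.09 (1.02 to 1.15) at E11.5.

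The stage difference of Twist2 was therefore of unequal size by phase. Its ratio, E13.5 over E11.5, was 1.36 (1.27 to 1.46) in G1 cells, 2.03 (1.89 to 2.19) in S cells and 2.70 (2.52 to 2.88) in G2M cells. For Prrx1 the ratio was 0.810 (0.778 to 0.844) in G1, 0.566 (0.537 to 0.596) in S and 0.615 (0.588 to 0.644) in G2M. Prrx2 stayed between 0.466 and 0.512 and Twist1 between 1.49 and 1.67 in the 3 phases. All 4 genes kept the direction of their stage difference in every phase.

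**Figure D3:**
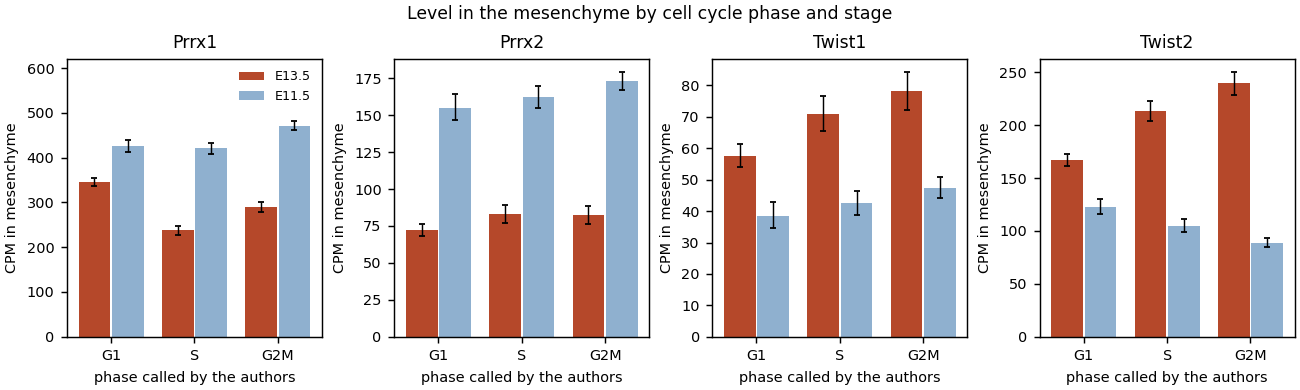
CPM of each gene in mesenchyme cells of phase G1, S and G2M, as called by the authors, at E13.5 (red bars) and E11.5 (blue bars), with 95% counting intervals as lines. Twist2 runs from 167 CPM in G1 to 240 CPM in G2M at E13.5 and from 123 to 88.8 CPM at E11.5; the Prrx genes are lower and the Twist genes higher at E13.5 in every phase.

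How many of the 4 genes a mesenchyme cell showed depended on depth. Of mesenchyme cells drawn to 2000 UMIs, at E13.5 33.5% had a UMI of none of the 4 genes, 45.5% of exactly 1, 18% of 2 and 2.95% of 3. At E11.5 25.4% had a UMI of none, 47.8% of exactly 1, 22.7% of 2 and 3.85% of 3. All 4 genes were detected in 4 of 3826 cells at E13.5 and 10 of 5899 cells at E11.5. The share of cells with 2 or more of the genes was 21% at E13.5 and 26.7% at E11.5 at 2000 UMIs, 45.0% at E13.5 and 56.5% at E11.5 at 4000 UMIs, and 69.0% at E13.5 and 71.4% at E11.5 at full depth. At full depth 7.91% of cells at E13.5 and 5.48% at E11.5 had all 4.

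Prrx1 and Twist2 were detected in the same cells less often than independent detection gives at E13.5. Prrx1 and Twist2 were found together in 7.89% of cells (7.06 to 8.79) at E13.5, below the 10.1% that the product of their single shares gives and the 9.07% that the products within clusters give. At E11.5 the pair was found in 9.76% (9.02 to 10.6), close to the product of 9.60%. Drawn to 4000 UMIs, the E13.5 pair remained below the product, at 19.5% (18.2 to 20.8) against 22.4%. The product within clusters was 20.8%, at the edge of the interval. At full depth the E13.5 pair was found in 38.3% (36.8 to 39.9). The product of 39.8% and the product within clusters of 38.2% then lay inside the interval.

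The paralogs were found together more often than the product at E13.5. Prrx1 and Prrx2 were both detected in 6.80% of cells (6.02 to 7.64) at E13.5, against a product of 5.42%, and in 13.9% (13.0 to 14.8) at E11.5, where the product was also 13.9%. At 4000 UMIs the E13.5 value of the Prrx pair was 15.2% (14 to 16.4), against a product of 13.9% and a product within clusters of 14.1%, which lay inside the interval. Twist1 and Twist2 were both detected in 3.89% (3.30 to 4.56) at E13.5, against 3.09%, and in 1.56% (1.26 to 1.91) at E11.5, against 1.34%. For the Twist pair the product within clusters, 3.67% at E13.5, lay inside the interval, as did 10.2% at 4000 UMIs (10.0 to 12.0). At full depth, where cells differ in depth, the Twist pair lay above both products at both stages. It was then found in 26.2% (24.8 to 27.6) at E13.5, against 21.3% and, within clusters, 23.6%. At E11.5 it was found in 9.98% (9.23 to 10.8), against 8.92% and, within clusters, 8.77%. Prrx2 and Twist2 were both detected in 2.93% (2.42 to 3.51) at E13.5, under a product of 3.66%, and in 3.54% (3.09 to 4.05) at E11.5, under a product of 4.42%, while the products within clusters, 3.22% at E13.5 and 3.90% at E11.5, lay inside both intervals. For Prrx2 and Twist1 the E13.5 value of 1.10%, under a product of 1.65%, did not hold at 4000 UMIs, where the ratio of measured to product was 0.961 (0.835 to 1.10).

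**Figure D4:**
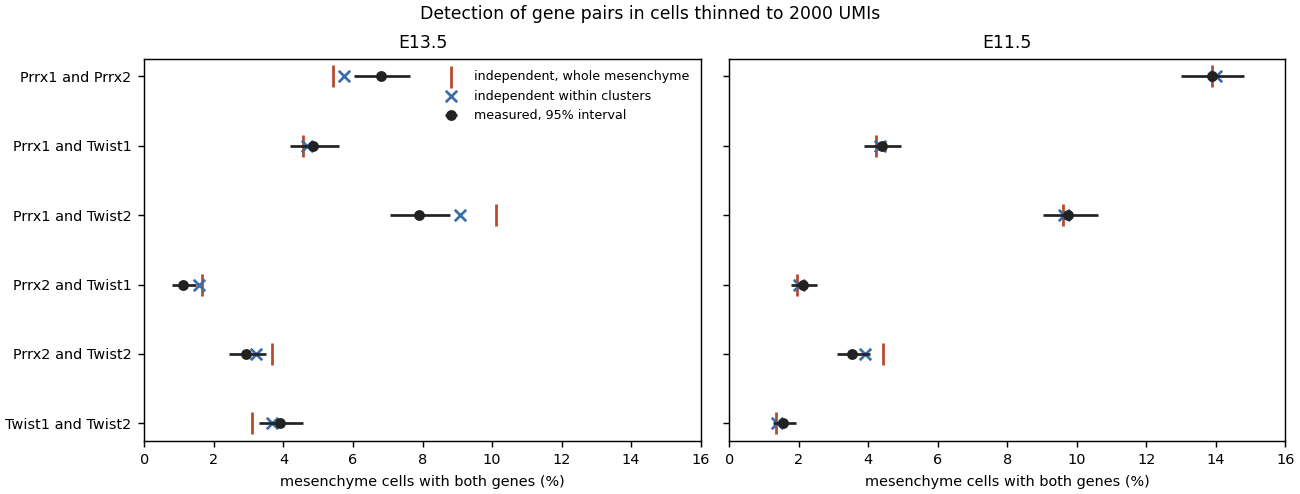
Percent of mesenchyme cells, drawn to 2000 UMIs each, in which both genes of a pair were detected (points with 95% intervals), at E13.5 (left) and E11.5 (right), beside the percent expected from independent detection over the whole mesenchyme (vertical ticks) and within clusters (crosses). At E13.5 Prrx1 and Twist2 lie below both marks, at 7.89% against 10.1% and 9.07%, and Prrx1 and Prrx2 lie above both, at 6.80% against 5.42% and 5.74%.

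Over all clusters of at least 50 cells, 22 at E13.5 and 17 at E11.5, the genes most like each member were found by the smaller of the correlations of log2(CPM + 10) at the 2 stages, among 3731 genes. The clusters of a library share its depth and free RNA, and the contrast of mesenchyme with other classes enters every value, so these values are descriptions. Prrx1 was most like Mab21l2 (0.97), followed by Col1a1 and Dnm3os (0.91 each), Col1a2 and Clmp (0.90 each). Dnm3os is a noncoding microRNA host transcript, and Col1a1 and Col1a2 encode type I collagen. Prrx2 was most like Nfatc4 (0.92), Clmp (0.88), Kif26b (0.87), Hand2 (0.85) and Pcdh18 (0.84). Twist1 was most like Pcdh18 and Col1a1 (0.91 each), Nfatc4 (0.90), Clmp and Dnm3os (0.89 each), and Twist2 most like Runx1t1 (0.94), a transcriptional corepressor, then S1pr3 (0.88), Col1a1 (0.87), Pth1r (0.85) and Fez1 (0.84).

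Over the 11 mesenchyme clusters of each stage alone the picture was another. Of the 5 most alike genes, 1 was shared with the list over all clusters for Twist2 (Runx1t1, 0.81) and none for Prrx1, Prrx2 and Twist1, whose first genes there were Otor (0.71), Psmg4 (0.83) and Nkd1 (0.84). Among the members, Twist1 and Twist2 had r = 0.79 at E13.5 and 0.11 at E11.5, and Prrx2 and Twist2 had -0.23 at E13.5 and -0.74 at E11.5. Prrx1 and Twist2 had -0.16 at E13.5 and 0.22 at E11.5.

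Of 9 measured genes of helix-loop-helix proteins that pair with TWIST proteins or block their partners, 3 were called higher in the mesenchyme at E13.5 and 1 lower, beside 27.0% of all measured genes called higher and 12.2% lower. The median log2 ratio was -0.08, beside 0.14 for all genes. Tcf4, which encodes an E protein, was at 435 CPM at E13.5 and 173 CPM at E11.5, 2.51-fold higher (2.43 to 2.58). Id4, which encodes an inhibitor that binds E proteins, was at 13.3 CPM at E13.5 and 3.89 CPM at E11.5, 3.43-fold higher (2.84 to 4.16). Tcf3, another E protein gene, was at 190 CPM at E13.5 and 270 CPM at E11.5 and was not called, at 1.42-fold lower (1.38 to 1.47). Hand1, a TWIST relative of the distal arch, was 2.15-fold lower (1.98 to 2.32), at 26.1 CPM at E13.5 and 56.1 CPM at E11.5. With size factors 3 members rather than 1 were called lower.

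Of 16 measured genes of epithelial to mesenchymal transition and neural crest mesenchyme, 11 were called higher at E13.5 and none lower, beside 27.0% of all measured genes called higher and 12.2% lower. The 11 include Cdh1, one of the epithelial markers, from 30 UMIs at E13.5 and 10 UMIs at E11.5. The list's median log2 ratio was 0.88. Tfap2b, a neural crest factor gene that also leads cluster 11 within the E13.5 mesenchyme, was at 22.9 CPM at E13.5 and 1.74 CPM at E11.5, 13.1-fold higher (10.2 to 17.2). Foxc1 was 4.50-fold higher (2.53 to 8.51), from 62 UMIs at E13.5 and 15 UMIs at E11.5. Sox9, the cartilage regulator, at 22.4 CPM at E13.5 and 30.9 CPM at E11.5, and Foxc2, at 6.88 CPM at E13.5 and 9.54 CPM at E11.5, were not called, and both were called lower with size factors, under which the list had 2 members lower. Foxd3 was not measured in the mesenchyme. Epithelial markers summed to 148 CPM in the E13.5 mesenchyme and 36.9 CPM in the E11.5 mesenchyme. The part of epithelial RNA in Cdh1 and in Tfap2b, which leads epithelial clusters too, was not tested.

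Of 14 other paired-type homeobox genes listed, 8 were measured, and 4 were called higher at E13.5 and 1 lower, beside 27.0% of all measured genes called higher and 12.2% lower. The list's median log2 ratio was 0.44. Shox2, a gene of limb and palate mesenchyme, was at 46.9 CPM at E13.5 and 25.7 CPM at E11.5, 1.83-fold higher (1.68 to 1.98), and Pitx3 was 3.43-fold higher (2.02 to 6.09), at 1.75 CPM at E13.5 and 0.509 CPM at E11.5. Pitx3 was also a leading gene of muscle clusters at both stages, and muscle markers summed to 96.6 CPM in the E13.5 mesenchyme and 29.0 CPM in the E11.5 mesenchyme, whose part in the Pitx3 value was not tested. Gsc, which encodes goosecoid, was at 82.6 CPM at E13.5 and 167 CPM at E11.5, 2.02-fold lower (1.94 to 2.12). Pitx1, a mandibular and hindlimb factor gene, was at 186 CPM at E13.5 and 260 CPM at E11.5 and was not called.

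Of 16 genes tied to TWIST1 or PRRX1 function in skull, jaw or limb mesenchyme, 8 were called higher at E13.5 and 3 lower, beside 27.0% of all measured genes called higher and 12.2% lower. The list's median log2 ratio was 0.59. Tnc, the tenascin C gene, was at 68.1 CPM at E13.5 and 12.6 CPM at E11.5, 5.39-fold higher (4.88 to 5.97). Fgfr3, a receptor gene of cartilage and sutures, was 2.33-fold higher (1.60 to 3.42), at 2.68 CPM at E13.5 and 1.15 CPM at E11.5. The homeobox genes Msx1 and Msx2, targets of BMP signalling, were lower: Msx2 was at 15.9 CPM at E13.5 and 71.7 CPM at E11.5, 4.52-fold lower (4.12 to 4.97). Runx2, the osteoblast regulator that TWIST proteins bind, was called lower at 14.2 CPM at E13.5 and 21.4 CPM at E11.5, and was named after its value was seen.

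Of 16 measured dermal and loose connective tissue genes, 13 were called higher at E13.5 and 2 lower, beside 27.0% of all measured genes called higher and 12.2% lower. The list's median log2 ratio was 1.46, the highest of the 5 lists. Dpt, which encodes dermatopontin, was 85.4-fold higher (38.9 to 234), at 13.7 CPM at E13.5 and 0.161 CPM, or 6 UMIs, at E11.5, and Col14a1 was at 8.72 CPM at E13.5 and 0.134 CPM, or 5 UMIs, at E11.5. Dkk1, a secreted WNT inhibitor, was 1.77-fold lower (1.63 to 1.92), at 27.7 CPM at E13.5 and 49.0 CPM at E11.5, and Lef1 was also called lower. Tcf21 was not measured in the mesenchyme. Lists and members were chosen with results of these data known, and nothing particular to a list is read from its counts.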

How the data were processed

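Single-cell RNA-seq of 2 libraries was analysed. The authors deposited UMI counts as whole numbers, cells by genes, for each library, with a metadata table holding clusters, lineage names, phase calls, cell cycle score values (not used) and the mitochondrial share as a fraction. The submitters' processing notes list Cell Ranger 2.0.0, Seurat 2.3.4 and mm10 without role or order. No source used here gives the annotation release, the cell filters or any doublet removal. The lowest UMI count per cell was 500 at E13.5 and 2253 at E11.5, and the highest mitochondrial share 19.98% at E13.5 and 7.900% at E11.5, so filters were unequal.

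Clusters were classed by lineage name and markers. Leading genes of a cluster are the 10 with the highest ratios over the rest of its library, at 50 CPM or more. For mesenchyme clusters they were also found over the rest of the mesenchyme, and genes of both lists are named. E11.5 cluster 17 led with glial markers and was left out of the mesenchyme, and E11.5 cluster 14, unnamed by the authors, was classed as skeletal muscle. E13.5 cluster 20, named mast cells, was classed as macrophage, and E13.5 cluster 8 (median 935 UMIs) stayed unnamed. E13.5 cluster 21, kept in the mesenchyme, had a median of 1833 UMIs. Doublets were kept, and no doublet caller was run.

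UMIs were summed per class or cluster and divided by their sum to CPM. Ratios have exact conditional binomial intervals, levels exact Poisson intervals and shares Clopper-Pearson intervals. A limit for 0 cells is 3 counts of the total. Genes listed at both stages with 20 or more UMIs in the mesenchyme, both libraries added, counted as measured. Detection was compared after drawing 2000 UMIs per cell. Named list genes are the 2 highest and 2 lowest ratios of each list; other list genes named, Runx2 among them, were chosen after their values were seen. Members and lists were chosen with earlier results of these data known. The calculations were tested on simulated data. The software was matplotlib 3.10.9, pandas 2.3.3, scipy 1.17.1 and numpy 2.4.6 under Python 3.11.15.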

Additional observations from a re-analysis of the deposited data

Results flagged for a closer look

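The cell cycle contrast of 2 genes pointed in opposite directions at the 2 stages. Prrx1 in S and G2M cells over G1 cells of the mesenchyme was 0.766 at E13.5 and 1.06 at E11.5. Twist2 in S and G2M cells over G1 cells was 1.36 at E13.5 and 0.776 at E11.5. The difference between stages was not tested, since each stage had 1 library. Means of ratios within clusters covered 9 of the 11 clusters at each stage. The mean of Twist2 still lay on opposite sides of 1, at 1.33 at E13.5 and 0.900 at E11.5. The mean of Prrx1 lay above 1 at both stages, at 1.21 at E13.5 and 1.04 at E11.5.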

How the results depend on the processing

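Of 202 recomputed values of 60 results, 133 kept their direction and size or side of the limit, 63 moved and 6 reversed. No paired analysis was possible because each stage had 1 library. Depth limits detection: a weak pair of genes at 2000 UMIs per cell rests on few cells. E13.5 cluster 21 and the deepest 5% of cells were left out in alternatives chosen after seeing the data, and the stage ratios stayed within their intervals.

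Stage ratios (E13.5 over E11.5). With size factors they were 0.619 (Prrx1), 0.426 (Prrx2), 1.37 (Twist1) and 1.75 (Twist2). With clusters weighing the same they were 0.653 (Prrx1), 0.409 (Prrx2) and 1.84 (Twist2), and as means of per-cell CPM 0.724 (Prrx1) and 1.78 (Twist2). In G1 cells they were 0.810 (Prrx1) and 1.36 (Twist2), without the skeletal clusters 0.638 (Prrx1, then called lower) and 2.13 (Twist2), without ribosomal, mitochondrial and haemoglobin genes 0.714 (Prrx1) and 2.02 (Twist2), and in cells with no Xist UMI 0.722 (Prrx1). No direction changed. With Gm26523 counted with Prrx1, chosen after seeing the data, the ratio of Prrx1 was 0.465 (then called lower) and the stage difference of the Prrx2 share was 0.155 points, against -6.74. By counts as deposited that difference was -3.04 points with clusters weighing the same and -9.38 in G1 cells, and that of the Twist2 share reversed to -1.78 in G1 cells. Without thinning the ratio of detected shares was 0.820 (Prrx1) and 0.748 (Prrx2).

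Detected pairs over independent detection. At E13.5, at 4000 UMIs and without thinning, the ratios were 1.09 and 1.05 (Prrx1 and Prrx2), 0.867 and 0.963 (Prrx1 and Twist2) and 0.961 and 0.984 (Prrx2 and Twist1). Prrx2 and Twist2 without thinning reversed to 1.0 at E13.5 and moved to 0.962 at E11.5.

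Clusters and classes. In clusters of at least 200 cells the range of Prrx2 was 1.56-fold at E13.5 and 3.39-fold at E11.5. In G1 cells the range of Prrx1 was 21.4-fold at E13.5, and at E11.5 that of Twist1 was 3.62-fold and of Twist2 5.06-fold. Without ribosomal, mitochondrial and haemoglobin genes the next highest class was chosen anew, with erythroid cells among the candidates. The mesenchyme then stood above it 6.16-fold (Prrx1) and 4.53-fold (Prrx2) at E13.5. At E11.5 it stood 2.41-fold (Prrx1), 2.48-fold (Prrx2) and 2.24-fold (Twist2) above. On the scale without globin the erythroid level was at or above all 8 next highest levels given earlier. These folds are thus not to be read against glia, muscle, epithelium or endothelium.

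Phase ratios over G1. In S and in G2M cells alone they were 0.690 and 0.841 (Prrx1) and 1.28 and 1.44 (Twist2) at E13.5, and 0.988, a reversal, and 1.11 (Prrx1) at E11.5, where Twist2 in S cells was 0.854. Means within clusters were 1.21 (Prrx1, reversed) and 1.65 (Twist1) at E13.5, and 1.0 (Prrx2, reversed), 1.43 (Twist1) and 0.900 (Twist2) at E11.5. The cause was not tested.

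List counts. With size factors 3 helix-loop-helix partners, 2 transition genes and 2 paired-type genes were called lower, and without the skeletal clusters 2 helix-loop-helix partners. At a 2-fold limit 6 transition genes, 1 paired-type gene and 4 genes tied to TWIST1 or PRRX1 were called higher, and 1 connective tissue gene lower. Of the 5 most alike genes, over mesenchyme clusters only 0 were kept for Prrx1, Prrx2 and Twist1 and 1 for Twist2. With a pseudocount of 1, 3 were kept for Prrx2, and with a limit of 20 CPM 3 each for Prrx2, Twist1 and Twist2.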

Other observations

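A noncoding gene inside Prrx1 was lower at E13.5 by far more than Prrx1 itself. Gm26523 (ENSMUSG00000096984), a lincRNA of GENCODE M21 at chr1:163301790-163303620 in GRCm38, lies within the span of Prrx1 on the same strand, and was chosen after its values were seen. In the mesenchyme it was at 24.4 CPM (22.8 to 26.1) at E13.5 and 261 CPM (256 to 266) at E11.5, 10.7-fold lower at E13.5 (9.96 to 11.5), where Prrx1 was 1.46-fold lower. Per 100 Prrx1 UMIs there were 8.04 Gm26523 UMIs at E13.5 and 58.6 at E11.5.

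Gm26523 was lower outside the mesenchyme. In erythroid cells it had 0 UMIs at E13.5 and 122 UMIs at E11.5. It was in epithelium at 0.566 CPM at E13.5 and 30.0 CPM at E11.5 and in skeletal muscle at 0.818 CPM at E13.5 and 20.8 CPM at E11.5. Over the 11 mesenchyme clusters its log2(CPM + 10) had r = 0.68 with that of Prrx1 at E13.5 and 0.99 at E11.5, as a description over clusters that share a library. In 10 of the 11 clusters at E13.5 there were 3.40 to 10.8 Gm26523 UMIs per 100 Prrx1 UMIs, against 42.7 to 66.1 in the 11 clusters at E11.5. The exception was the shallow E13.5 cluster 21, with a median of 1833 UMIs per cell, where there were 74.3. How reads of overlapping genes were counted is not stated in the labels, so the Prrx1 count may also be touched by this overlap. With both counts added, Prrx1 was 2.15-fold lower at E13.5 (2.10 to 2.20), and the Prrx2 share of Prrx UMIs was 19.1% at E13.5 and 19.0% at E11.5.

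Twist2 is overlapped at its start by an antisense gene, Gm29100, on the minus strand at chr1:91798528-91802937. Gm29100 was at 2.36 CPM in the E13.5 mesenchyme and 2.06 CPM in the E11.5 mesenchyme. The labels do not say whether the counting used strand.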
